A study of Bos taurus with 147 samples.

Results

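The genes described here encode the factors that start and extend a protein chain on the ribosome and the aminoacyl-tRNA synthetases that charge tRNAs with amino acids. They were chosen by gene symbol: every transcript of the array table was taken whose only platform symbol was that of an EIF1 to EIF6 gene, an EEF1 or EEF2 gene, or a synthetase named by 1 amino acid letter followed by ARS, ARS1 or ARS2, or EPRS1. This gave 78 of 10986 transcripts, each of a different gene, with 52 translation factors, 14 cytosolic synthetases and 12 mitochondrial synthetases. GARS1 and KARS1, which serve both the cytosol and mitochondria, were counted as cytosolic. A further 10 transcripts carried such a symbol together with others and were not used, among them those of EIF4A2, EIF5B and EEF1A1. No measured value entered the choice.

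The RNA came from the adrenal cortex of 145 cows, the F2 generation of Charolais crossed with German Holstein, with 1 array per cow. All were females aged 1127 to 1774 days at slaughter, no treatment distinguished them, and the study describes half-sib and full-sib families among them. They fell into 25 classes of year and season of slaughter with 2 to 13 cows each. Summer held 45 cows, autumn 38, spring 36 and winter 26. The 8 years were consecutive and ended with 2011. There were 7 cows in the first year, 11 in the second, 6 in the third, 22 in the fourth, 39 in 2008, 24 in 2009, 21 in 2010 and 15 in 2011, a winter being counted for the year it began in. The study used the array to relate transcript abundance to genetic variants, with class and age as terms of its model. Here the 78 genes were compared over those classes, over years, between summer and winter, over age, and between cows within classes.

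Protein synthesis begins when eIF2 brings the initiator tRNA to the small ribosomal subunit, which carries eIF3, while eIF4F binds the cap of the mRNA and brings it to that subunit. Phosphorylation of eIF2 by one of its kinases blocks its recycling by eIF2B and lowers translation as a whole, while the mRNA of the transcription factor ATF4 is translated more. In cells of human and mouse, ATF4 induces many cytosolic synthetase genes together with genes of amino acid transport and synthesis. The adrenal cortex makes steroid hormones from cholesterol and surrounds the medulla, whose chromaffin cells make catecholamines.

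All values are log2 signals, and a difference of 1 is a doubling. Array medians ranged from 7.89 to 8.08, and the array least like the others had a median correlation of 0.950 with them. Among the 78 genes, 1 cow of summer2011 had the lowest signal of all 145 cows in 18, with KARS1 at 10.33 (next cow 10.92), SARS1 at 9.48 (next 10.06) and EEF1B2 at 7.05 (next 7.71), and calls that change without it are stated with the result. Markers of the cortex were present, with 8 of 15 listed genes measured and a mean log2 signal of 12.05 to 12.54 per cow. Of 20 listed chromaffin genes, 14 were also measured, and their mean log2 signal ran from 7.38 over a median of 9.10 to 10.84, so the signal of medullary cells differed widely between samples. In whole tissue, fewer cells of a type and less RNA per cell cannot be told apart. The list of CLK1, PNISR and 8 other transcripts marked a component shared by much of the array, which held 29.0% of the residual variance of 10771 transcripts outside the lists. This component is called the array-wide component below, and a gene's correlation with it is given where a result touches it.

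More genes passed for the year of slaughter than for class, season or age. Of the 78 genes, 35 passed the limma test of a linear slope on year (adjusted p under 0.05 over all 10986 transcripts), 25 with higher and 10 with lower signals in later years. Over all transcripts 44.9% passed, 25.7% upward and 19.2% downward, so that the share among translation genes, 44.9%, was that of the array. The median slope was 0.0066 log2 units per year over the 78 genes and 0.0026 over all transcripts. Among translation factors, 29 of 52 passed, and among synthetases 6 of 26, but with the array-wide component as a covariate the counts were 26 of 52 and 12 of 26 (where 41.4% of all transcripts passed), and the contrast was not tested. When the arrays were quantile-normalized once more, 17 genes were higher and 16 lower in later years (22.5% and 23.2% of all transcripts), and the slope of EIF4H turned to −0.0059.

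**Figure D1:**
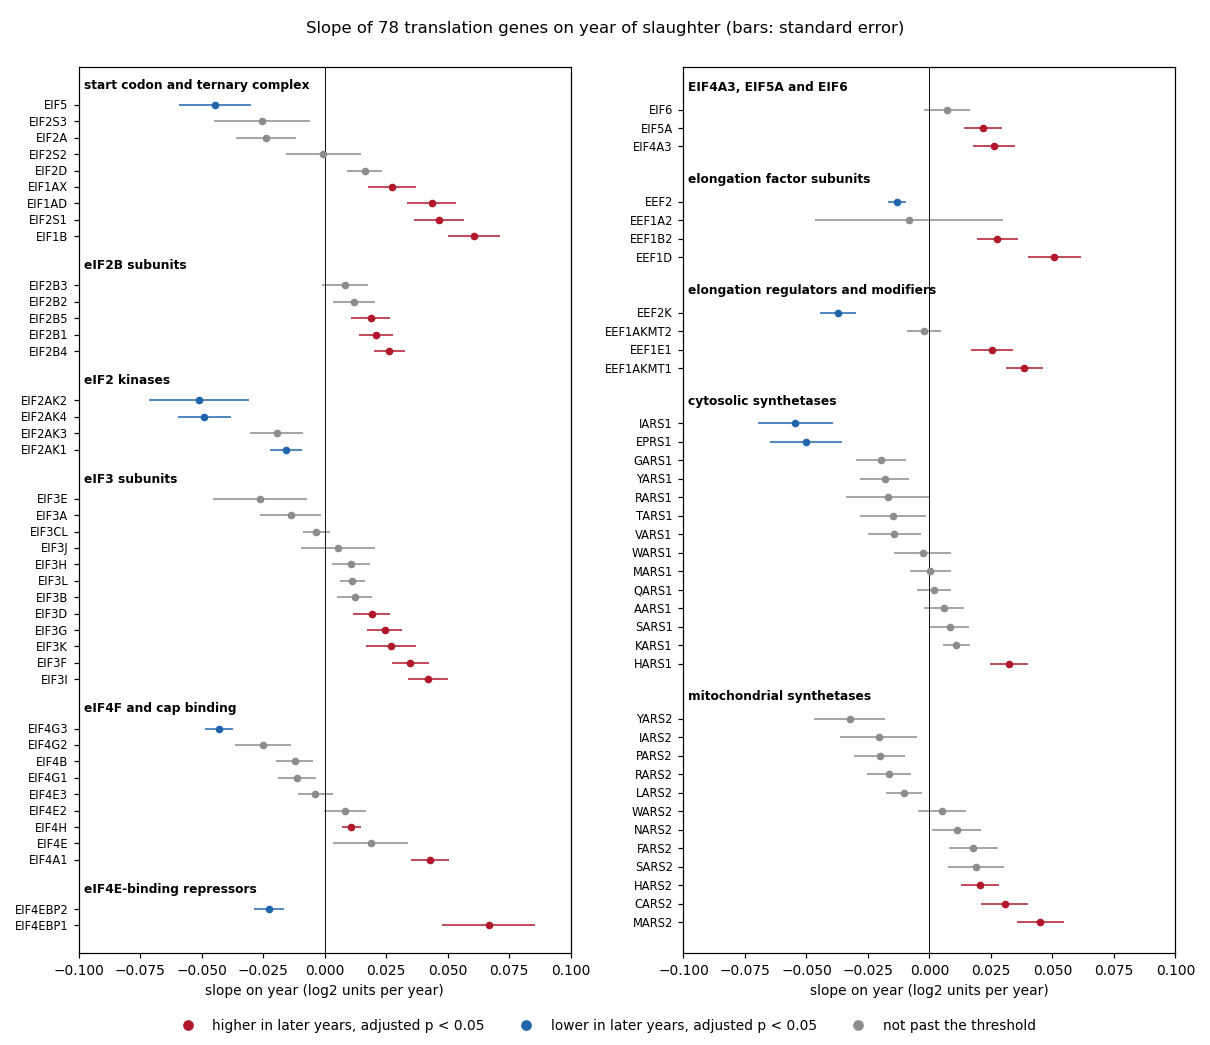
Slope of each of the 78 genes on year of slaughter in log2 units per year, with its standard error, grouped by role in 11 blocks. Red points were higher (25 genes) and blue points lower (10 genes) in later years at an adjusted p under 0.05, and grey points did not pass. The eIF2B subunits that passed lie to the right of 0 and the eIF2 kinases that passed lie to the left.

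Of the 9 genes grouped by symbol as start codon and ternary complex factors, 4 rose and 1 fell over the years. EIF1B, a close relative of the start codon selection factor eIF1, had a lowest, median and highest signal of 8.10, 8.33 and 8.60 in the 7 cows of the first year and of 8.27, 8.76 and 9.23 in the 15 cows of 2011. The ranges overlapped, but the median cow of 2011 lay above the highest cow of the first year. Its slope was 0.061 ± 0.011 log2 units per year (SE, n = 145 cows, limma adjusted p = 9.04e-07). EIF2S1, which encodes the alpha subunit of eIF2 that the kinases phosphorylate, rose by 0.046 ± 0.010 per year (adjusted p = 9.20e-05). EIF1AD and EIF1AX rose by 0.043 and 0.027 per year, with adjusted p of 1.46e-04 and 0.0165. The call of EIF1AX was lost after repeated quantile normalization. EIF5, which stimulates the hydrolysis of GTP by eIF2, fell by 0.045 ± 0.015 per year (adjusted p = 0.00928), but had −0.0038 with the array-wide component as a covariate (adjusted p = 0.762). The beta and gamma subunits of eIF2, EIF2S2 and EIF2S3, had slopes of −0.00057 and −0.026 that did not pass. With the array-wide component as a covariate both passed, with slopes of 0.037 and 0.030 (adjusted p = 0.00314 and 0.0116). EIF2D did not pass with a slope of 0.016 (adjusted p = 0.0562), but did without the cow of summer2011 (0.018, adjusted p = 0.0293).

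Of the 5 subunits of the guanine nucleotide exchange factor eIF2B, 3 rose: EIF2B4 by 0.026, EIF2B1 by 0.021 and EIF2B5 by 0.019 log2 units per year, with adjusted p of 4.02e-04, 0.0109 and 0.0481. The slopes of EIF2B2 and EIF2B3 were 0.012 and 0.0082 and did not pass. Of the 4 eIF2 kinases, whose work opposes that of eIF2B, 3 fell. EIF2AK4, the kinase that senses uncharged tRNA, had a lowest, median and highest signal of 7.81, 8.10 and 8.40 in the first year and of 7.40, 7.90 and 8.12 in 2011. Its slope was −0.049 ± 0.011 per year (adjusted p = 6.67e-05), although the ranges of the first and the last year overlapped. EIF2AK2, the kinase activated by double-stranded RNA, had a slope of −0.051 ± 0.020 (adjusted p = 0.0311), and EIF2AK1, the kinase that responds to low haem, one of −0.016 ± 0.0067 (adjusted p = 0.0445). EIF2AK3, the kinase of the endoplasmic reticulum, had a slope of −0.020 ± 0.011 (adjusted p = 0.131). Of these 6 calls, that of EIF2AK4 alone held in every alternative. With the array-wide component as a covariate EIF2B4 missed the threshold (0.012, adjusted p = 0.0568), EIF2B5 had 0.0043, EIF2B2 −0.0061 and EIF2AK2 −0.00088. EIF2B1 lost its call without 2010 (adjusted p = 0.311), the calls of EIF2B5, EIF2AK1 and EIF2AK2 were lost without several of the years, and that of EIF2AK1 also without the cow of summer2011 named above (adjusted p = 0.0678). In cows of the last 5 years the slope of EIF2AK1 was 0.022 (adjusted p = 0.0664).

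Of the 12 eIF3 subunits, 5 rose and none fell. EIF3I had a lowest, median and highest signal of 11.15, 11.29 and 11.49 in the first year and of 11.30, 11.49 and 11.77 in 2011, and its slope was 0.042 ± 0.0081 log2 units per year (adjusted p = 1.01e-05). EIF3F rose by 0.035, EIF3K by 0.027, EIF3G by 0.024 and EIF3D by 0.019 per year, with adjusted p of 6.82e-05, 0.0253, 0.0031 and 0.0302. The calls of EIF3K, EIF3G and EIF3D were lost after repeated quantile normalization. The 5 genes that rose share a negative correlation with the array-wide component, between −0.86 for EIF3G and −0.69 for EIF3F. EIF3E and EIF3A, with correlations of 0.94 and 0.87 with that component, had slopes of −0.026 and −0.014 that did not pass. With the component as a covariate EIF3E had 0.030, EIF3A 0.020, EIF3H 0.026 and EIF3J 0.041. All of these passed, with adjusted p from 7.56e-04 to 0.0174. EIF3CL shares nearly all of its sequence with EIF3C, so that the source of its signal is uncertain, and its slope was −0.0035. EIF3L did not pass with a slope of 0.011 (adjusted p = 0.0696), but did without the cow of summer2011 (0.015, adjusted p = 0.00915).

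Among the factors of cap binding, EIF4G3 and EIF4A1 diverged. EIF4G3, a scaffold protein of eIF4F, had a lowest, median and highest signal of 10.41, 10.59 and 10.64 in the first year and of 10.10, 10.28 and 10.55 in 2011. The medians of the years between descended without exception, with 10.52 in the second year, 10.48 in the third, 10.45 in the fourth, 10.40 in 2008, 10.35 in 2009 and 10.30 in 2010. The slope of −0.043 ± 0.0056 per year (adjusted p = 1.30e-10) had the smallest p of the 78 genes. EIF4A1, the helicase of the same complex, had a lowest, median and highest signal of 11.31, 11.55 and 11.64 in the first year and of 11.09, 11.80 and 11.94 in 2011. Of the 15 cows of 2011, 14 lay above the median of the first year, and the slope was 0.043 ± 0.0076 per year (adjusted p = 1.15e-06). The slopes of EIF4G1, the major scaffold, and of EIF4E, the cap-binding protein, were −0.011 and 0.019 and did not pass. Both passed with the array-wide component as a covariate, with −0.026 and 0.059 (adjusted p = 0.00147 and 2.95e-07). EIF4H, a stimulator of the helicase, had a slope of 0.011 ± 0.0038 per year (adjusted p = 0.0143), which changed sign after quantile normalization.

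The 2 repressors that hold eIF4E away from eIF4G changed in opposite directions. EIF4EBP1 had a lowest, median and highest signal of 7.41, 7.83 and 7.92 in the first year and of 7.49, 8.43 and 8.92 in 2011, and rose by 0.067 ± 0.019 per year (adjusted p = 0.00228). Its slope was the steepest of the 78 genes but lost its call without the cows of 2011 (adjusted p = 0.102). EIF4EBP2 fell by 0.023 ± 0.0060 per year (adjusted p = 0.00105). EIF4A3, a helicase of the exon junction complex, and EIF5A, which relieves stalled ribosomes, rose by 0.026 and 0.022 per year, with adjusted p of 0.00775 and 0.0144. Both calls were lost after quantile normalization and with the component as a covariate, where the slopes were 0.0064 and 0.0019. EIF6, which keeps the large ribosomal subunit free, had a slope of 0.0071 that did not pass.

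**Figure D2:**
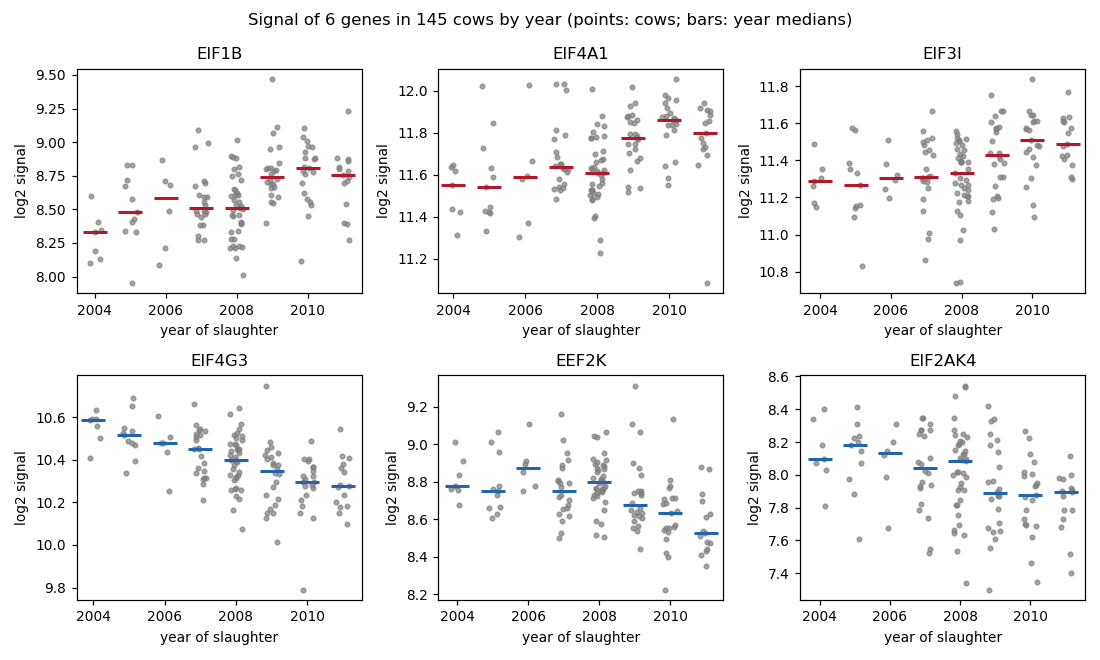
Log2 signal of EIF1B, EIF4A1, EIF3I, EIF4G3, EEF2K and EIF2AK4 against year of slaughter, with 1 point per cow and a bar at the median of each year. The median of EIF4G3 was 10.59 in the first year and 10.28 in 2011, that of EIF1B 8.33 in the first year and 8.76 in 2011, and the ranges of the years overlap in every panel.

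Elongation genes were also divided. EEF1D and EEF1B2, subunits of the exchange factor that reloads eEF1A with GTP, rose by 0.051 ± 0.011 and 0.028 ± 0.0084 log2 units per year (adjusted p = 5.49e-05 and 0.0046). EEF2, the factor that moves the ribosome along the mRNA, had a lowest, median and highest signal of 12.63, 12.65 and 12.73 in the first year and of 12.44, 12.57 and 12.66 in 2011. It fell by 0.013 ± 0.0038 per year (adjusted p = 0.00253), a small change in a gene that varied little between cows, and had −0.0058 in cows of the last 5 years (adjusted p = 0.485). EEF2K, the kinase that inactivates eEF2, also fell, by 0.037 ± 0.0073 per year (adjusted p = 1.01e-05). Its signal was 8.68, 8.78 and 9.01 (lowest, median, highest) in the first year and 8.35, 8.53 and 8.88 in 2011. EEF1AKMT1, a lysine methyltransferase of eEF1A, rose by 0.039 ± 0.0075 per year (adjusted p = 9.33e-06), and EEF1E1, a scaffold protein of the multisynthetase complex, by 0.025 ± 0.0087 (adjusted p = 0.012).

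Of 14 cytosolic synthetases, 1 rose and 2 fell, and of 12 mitochondrial synthetases 3 rose. HARS1, the cytosolic histidyl-tRNA synthetase, had a lowest, median and highest signal of 9.62, 9.75 and 9.97 in the first year and of 9.04, 10.03 and 10.31 in 2011. It rose by 0.032 ± 0.0077 per year (adjusted p = 2.70e-04). IARS1 and EPRS1, the isoleucyl and the glutamyl-prolyl synthetase, fell by 0.054 ± 0.015 and 0.050 ± 0.015 per year (adjusted p = 0.0019 and 0.0029). Both correlated with the array-wide component, at 0.88 and 0.87. MARS2, CARS2 and HARS2, which charge methionyl, cysteinyl and histidyl tRNAs in mitochondria, rose by 0.045, 0.031 and 0.021 per year (adjusted p = 3.93e-05, 0.0056 and 0.0211). With the component as a covariate MARS2 kept its call, while CARS2 had 0.0093 and HARS2 0.017 (adjusted p = 0.345 and 0.103). HARS1 and HARS2 are neighbours in the RefSeq gene table of cattle, and their residuals within classes correlated with r = 0.53, or 0.47 without the cow of summer2011, in which both were lowest. Of the 20 other synthetases, 19 had slopes within 2 standard errors of 0, such as MARS1 with 0.00031 ± 0.0083, QARS1 with 0.0018 ± 0.0069 and WARS1 with −0.0028 ± 0.011. With the array-wide component as a covariate, 10 of these 20 passed. VARS1 (−0.040), QARS1 (−0.017), LARS2 (−0.026), PARS2 (−0.034), YARS1 (−0.030) and WARS1 (−0.027) then fell, with adjusted p from 1.61e-05 to 0.0222, and NARS2 (0.034), RARS1 (0.031), IARS2 (0.025) and WARS2 (0.024) rose, with adjusted p from 1.39e-04 to 0.0248. Without the cow of summer2011, KARS1 passed as well, with a slope of 0.016 against 0.011 with it (adjusted p = 0.00325 and 0.103).

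Transcripts that mark the array-wide component moved with the year too. Of the 10 listed, 8 fell over the years, with a median slope of −0.064 over the list. The component itself was taken from residuals after class was fitted, so it cannot follow the year. As a covariate it was taken from the values, and its own slope on year is not given here. Of the 25 translation genes that rose, 15 had a correlation below −0.5 with the component and 2 one above 0.5. Of the 10 that fell, 6 had a correlation above 0.5 and 1 one below −0.5. With the component as a covariate, 38 genes passed the test on year, 25 upward and 13 downward, of which 20 were among the 35 above, none with the opposite sign. The 15 that did not pass then were EIF5, EIF2B4, EIF2B5, EIF2AK2, EIF4H, EIF4EBP1, EIF4A3, EIF5A, IARS1, EPRS1, CARS2, HARS2 and 3 of the 5 eIF3 subunits (EIF3D, EIF3G and EIF3K). In cows of the last 5 years the calls of EIF1AX, EIF5, EIF2AK1, EIF2AK2, EIF3D, EIF3K, EIF4EBP1, EIF4EBP2, EEF2, EEF1E1 and CARS2 were not met, in a fit with fewer cows. EIF4E passed with the component as a covariate, with a slope of 0.059 (adjusted p = 2.95e-07). In the same fit EIF2S2, EIF2S3, EIF3A, EIF3E, EIF3H, EIF3J and EIF4G1 also passed, besides the 10 synthetases named above. EIF4G3, EIF1B, EIF4A1, EEF1AKMT1, EIF3I, EEF2K, MARS2, EEF1D, EIF2AK4, EIF3F, EIF2S1, EIF1AD, HARS1 and EEF1B2, 14 in all, passed in each of the 12 alternative fits, without each of the 8 years, without each of the 42 cows of the classes with 2 to 5 cows, and without the cow of summer2011. Year of slaughter cannot be told apart here from anything else that changed between years.

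Genes near translation in the wider pathway were counted in the same fit. Of 24 measured genes of the mTORC1 pathway, which controls the eIF4E-binding repressors, 10 rose and 5 fell over the years, or 62.5%, where 44.9% of all transcripts passed. The median correlation with the array-wide component, whose listed transcripts mostly fell over the years, was −0.64 over these 24 genes and −0.10 over all transcripts. No count of this list with the component as a covariate is given here, and the difference in shares was not tested. LAMTOR5, LAMTOR2 and LAMTOR4, subunits of the lysosomal complex that recruits mTORC1, rose by 0.11 ± 0.014, 0.086 ± 0.012 and 0.071 ± 0.012 per year (adjusted p = 4.36e-12, 3.98e-09 and 4.82e-07), and NPRL2, a subunit of a complex that restrains mTORC1, by 0.043 ± 0.011 (adjusted p = 0.00119). MTOR, the kinase itself, fell by 0.033 ± 0.0069 per year (adjusted p = 3.18e-05), and FNIP1, RPS6KB1, TSC2 and RPTOR by 0.042, 0.031, 0.027 and 0.024. Of 18 measured other factors of cytosolic translation, 3 rose and 2 fell, led by AIMP2, a scaffold protein of the multisynthetase complex, with 0.048 ± 0.011 per year (adjusted p = 2.12e-04), and DHPS, the enzyme that begins the hypusine modification of eIF5A, with 0.042 ± 0.010 (adjusted p = 3.64e-04). Of 14 transcripts of 13 mitochondrial translation factors, 6 rose and 2 fell, led by MTRFR with 0.072 ± 0.010 per year and GATC with 0.056 ± 0.0078 (adjusted p = 2.39e-09 and 1.17e-09). TUFM, the mitochondrial elongation factor Tu, rose by 0.044 ± 0.011 per year (adjusted p = 5.83e-04). Of 15 measured genes of the ATF4 list, 2 rose and none fell, and of 8 interferon-response genes 2 rose and 1 fell. Among cell type markers, 2 of 8 macrophage genes, 2 of 8 endothelial genes and 2 of 8 cortical genes rose, while 1 cortical gene, 1 of 15 chromaffin transcripts and 1 of 6 fibroblast and capsule genes fell. None of 3 T and NK cell genes passed, nor did the 1 adipocyte gene, and no erythroid gene was among the transcripts. The part of these cell types in the slopes of translation genes was not tested, except for the chromaffin mean given with EEF1A2.

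The F-test over the 25 classes called 7 of the 78 genes, or 8.97%, where 11.6% of all transcripts were called. With the array-wide component as a covariate, 20 genes (25.6%) were called, where 23.0% of all transcripts were. The 7 genes were EIF1B (F = 3.35, adjusted p = 2.55e-04), EIF4G3 (F = 2.71), EIF2AK1 (F = 2.70), EIF4A1 (F = 2.69), EEF1AKMT1 (F = 2.56), EIF3F (F = 2.33) and EIF2B1 (F = 2.08, adjusted p = 0.0458). For EIF1B the 4 cows of autumn2004 had a lowest, median and highest signal of 8.10, 8.23 and 8.60, and the 8 cows of summer2010 one of 8.53, 8.92 and 9.11. These classes, the lowest and the highest by median, overlapped by a narrow margin. For EIF4G3 the 3 cows of summer2004 lay between 10.59 and 10.64 and the 2 cows of autumn2011 at 10.15 and 10.28, without overlap. For EIF2AK1 the 4 cows of spring2006 lay between 8.89 and 9.29 and the 6 cows of summer2011 between 8.39 and 8.66, again apart. In each case the classes were picked as the lowest and highest of the 25 by that gene's own median. A gap between classes picked in this way is not a test. EIF4G3, EIF1B, EIF4A1, EEF1AKMT1, EIF3F, EIF2AK1 and EIF2B1 were all called for year as well. Of the synthetases none was called over classes. The genes with the next largest F were EEF2K, EIF3CL, EIF4H, EIF2B4 and EIF2S1, with F between 1.92 and 1.73 and adjusted p between 0.0829 and 0.155. Without the cow of summer2011, EIF2B4 passed (F = 2.09, adjusted p = 0.0448). The calls of EIF4A1, EIF3F and EIF2B1 were lost after quantile normalization, and those of EIF3F and EIF2B1 also after centring the arrays on their medians. EIF2B1 also missed the threshold without the 5 arrays least like the others (adjusted p = 0.0533).

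No gene passed the tests of summer against winter or of any season difference, and the same held for all 10986 transcripts (0% called in both). At an unadjusted limma p under 0.05, 10 of the 78 genes (12.8%) differed between summer and winter, where 11.8% of all transcripts did, and 12 (15.4%) differed over seasons, where 12.4% of all transcripts did. EEF1A2 had the largest difference of the 78 genes. Its lowest, median and highest signals were 7.00, 8.79 and 10.73 in the 45 cows of summer and 6.51, 8.64 and 9.62 in the 26 cows of winter. Most cows of both seasons lay in a shared range, while the highest cows were of summer and the lowest of winter, and the fitted difference, summer minus winter, was 0.50 ± 0.20 (SE, adjusted p = 0.335). The chromaffin genes differed in the same way, with 10 of 15 transcripts at an unadjusted p under 0.05, a median difference of 0.43 and none past the threshold. WARS1, the cytosolic tryptophanyl-tRNA synthetase, had 9.84, 10.42 and 11.68 in summer and 9.87, 10.28 and 10.68 in winter, a difference of 0.12 ± 0.059. EIF3A, the largest subunit of eIF3, had 8.42, 8.98 and 9.67 in summer and 8.45, 9.18 and 9.77 in winter, a difference of −0.17 ± 0.065. Age at slaughter gave no call either, among the 78 genes or among all transcripts (0%). At an unadjusted p under 0.05, 6 genes (7.69%) had a slope on age, where 8.47% of all transcripts had one, and no slope exceeded 0.068 log2 units per 100 days in size.

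Within classes the 78 genes varied somewhat less than other transcripts of like signal. After class and age were fitted, the SD of the residuals between cows had a median of 0.218 over the 78 genes and of 0.25 over all transcripts. Ranked within 10 groups of transcripts of like signal, the median gene lay at percentile 39.9. The least variable were EIF4H with an SD of 0.072 (percentile 1.46), EEF2 with 0.077 (1.73), EIF2AK1 with 0.134 (3.00), EIF4G3 with 0.128 (3.91) and EIF3B with 0.156 (5.01). EIF4H ranged only from 11.75 over a median of 11.98 to 12.15 in the 145 cows. The most variable was EEF1A2, with a residual SD of 0.881 (percentile 98.9), whose signals ran from 6.17 over a median of 8.76 to 10.73. EIF3E (0.452, percentile 96.2), EIF2S3 (0.451, percentile 94.8), EIF4EBP1 (0.451, percentile 93.4) and EIF2AK2 (0.482, percentile 92.9) followed, and then RARS1, IARS2, EIF4E, EIF5 and EPRS1 with percentiles from 88.7 to 84.6. Of these 10 genes, EIF3E, EIF2S3, EIF2AK2, RARS1, IARS2, EIF4E, EIF5 and EPRS1 had correlations between 0.80 and 0.94 with the array-wide component.

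**Figure D3:**
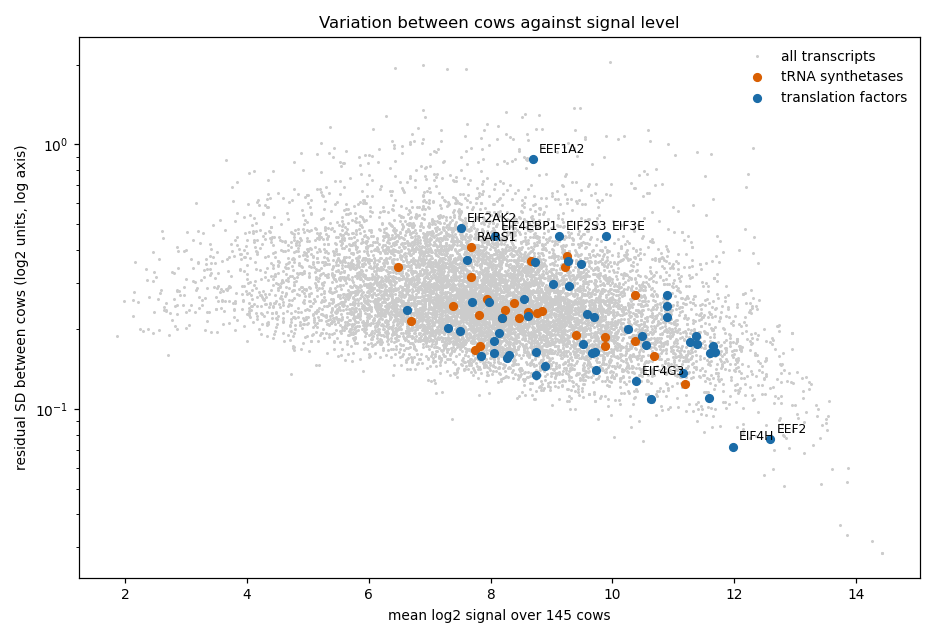
Residual SD between cows, in log2 units on a log axis, against the mean log2 signal of 145 cows. Grey dots are all transcripts of the table, blue points translation factors and orange points tRNA synthetases. EEF1A2 stands highest among the marked genes, at an SD of 0.881, and EIF4H lowest, at 0.072.

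EEF1A2 followed the markers of chromaffin cells. It encodes the form of elongation factor eEF1A that replaces the general form in neurons and muscle, and its residuals correlated with the mean of 15 transcripts of 14 chromaffin genes with r = 0.971 and rho = 0.967 (n = 145 cows, two-sided permutation p = 1e-05 for both, the smallest that 100000 permutations can give, adjusted p = 1.93e-05 and 1.59e-05 over 27 correlations). Without the 2 cows farthest from the median r was 0.969, and with the array-wide component removed from both sides 0.979. The 3 cows with the highest EEF1A2 signals, 10.73, 10.60 and 10.53, had chromaffin means of 10.81, 10.84 and 10.73, and the 3 with the lowest, 6.17, 6.51 and 6.54, had means of 7.38, 7.82 and 7.49. The single chromaffin genes gave correlations from 0.432 for PCSK1, a prohormone convertase, to 0.965 for CYB561, the cytochrome of the granule membrane. CHGA, TH and DBH, which encode chromogranin A and 2 enzymes of catecholamine synthesis, gave 0.958, 0.951 and 0.948. With the chromaffin mean as a covariate, the residual SD of EEF1A2 was 0.212, against 0.881 without it. Its correlation with the mean of 8 cortical steroid genes was −0.324 (rho = −0.288, permutation p = 7e-05, adjusted p = 1.18e-04). Over all transcripts, FAIM2, SEZ6L2 and TMEM130 were most like EEF1A2, with r of 0.979, 0.978 and 0.967 over 145 cows. With the chromaffin mean as a covariate, the counts of genes called for year stayed at 25 upward and 10 downward.

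**Figure D4:**
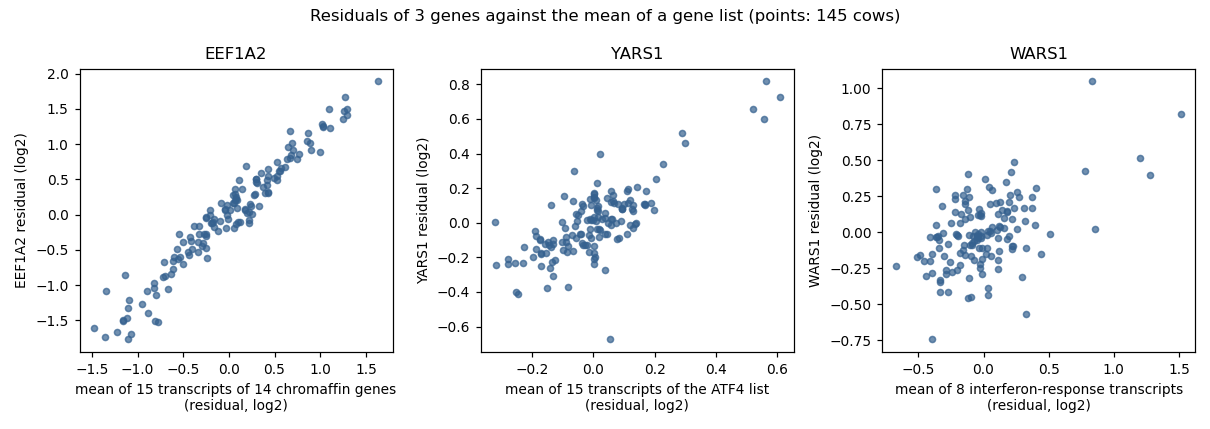
Residuals after class and age, in log2 units, of EEF1A2 against the mean of 15 chromaffin transcripts, of YARS1 against the mean of 15 transcripts of the ATF4 list and of WARS1 against the mean of 8 interferon-response transcripts, with 1 point per cow. EEF1A2 lies close to a line (r = 0.971), YARS1 (r = 0.758) and WARS1 (r = 0.522) scatter more, and 4 cows stand apart at the upper end of the ATF4 list.

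Cytosolic synthetases were set against the mean of the 15 measured genes of the ATF4 list, which include ATF4 itself, the asparagine synthetase ASNS and the amino acid transporters SLC3A2 and SLC7A5. Of 14 synthetases, 8 correlated positively and 4 negatively at an adjusted permutation p under 0.05, and GARS1 and KARS1 did not pass. The smallest r that passed was 0.216 in size, and of the 10971 transcripts outside the list 36.4% lay at or above it and 31.8% at or below its negative, so that such correlations were common on the array. The list mean itself correlated with the array-wide component at −0.642. The highest were MARS1 with r = 0.766 (rho = 0.702), YARS1 with 0.758 (rho = 0.668) and AARS1 with 0.736 (rho = 0.704), each with the smallest p the permutations can give. WARS1, VARS1, SARS1, QARS1 and HARS1 followed with 0.608, 0.605, 0.579, 0.540 and 0.314. The negative ones were RARS1 with −0.513, IARS1 with −0.479, EPRS1 with −0.415 and TARS1 with −0.216. The sign ran with the array-wide component: the synthetases with negative r had correlations of 0.80 to 0.89 with it, and the 8 with positive r had correlations of −0.89 to −0.39.

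With the component removed from both sides, the order changed. YARS1 had r = 0.716, GARS1 0.672, TARS1 0.638, MARS1 0.592, AARS1 0.567, SARS1 0.465 and WARS1 0.326, all past the threshold by r and by rho. EPRS1 with 0.378, IARS1 with 0.242 and VARS1 with 0.230 passed by Pearson's r but had rho of 0.113, 0.0052 and 0.075 that did not. In this setting 10 of the 14 synthetases and 13.6% of the transcripts outside the list had an r of at least 0.230. QARS1 (−0.087), RARS1 (0.161), HARS1 (0.052) and KARS1 (0.052) did not pass. For YARS1, MARS1, AARS1, SARS1 and WARS1 the positive correlation thus stood in both settings, while that of TARS1 changed sign. A tail of 4 cows had residual list means from 0.52 to 0.61, where the next cow had 0.30. In these 4 cows the median residual was 0.69 for YARS1, 0.53 for TARS1, 0.47 for GARS1, 0.45 for AARS1 and 0.42 for MARS1, against medians from −0.031 to −0.0035 in the other cows. Without these 4 cows, chosen after their values were seen, r was 0.627 for YARS1, 0.707 for MARS1 and 0.666 for AARS1, but −0.470 for TARS1 and −0.174 for GARS1. The 5 genes had 0.534, 0.403, 0.388, 0.423 and 0.474 in the same order once the component was removed as well, and SARS1 had 0.306, WARS1 0.241, EPRS1 0.112, VARS1 0.048 and IARS1 −0.067. The values of EPRS1, VARS1 and IARS1 thus rested on the 4 cows, and without them GARS1 and TARS1 were positive only with the component removed.

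Of the eIF2 kinases, EIF2AK4 correlated with the ATF4 list at −0.652 and EIF2AK2 at −0.495, while EIF2AK1 gave 0.373 (adjusted p = 1.93e-05, 1.93e-05 and 7.20e-05). With the component removed EIF2AK4 had −0.354, EIF2AK1 0.329 and EIF2AK3 0.481, but the rho of EIF2AK1, 0.171, missed the threshold (adjusted p = 0.0757), and EIF2AK2 had 0.043. Before removal EIF2AK3 had r = 0.035 with a rho of −0.175 (adjusted p = 0.725 and 0.0468), so that its sign differed between settings. Without the 2 cows farthest from the median, these values of EIF2AK1, EIF2AK3 and EIF2AK4 were 0.210, 0.313 and −0.248. Without the 4 cows of the tail, EIF2AK1 had 0.198 before and 0.134 after removal of the component, EIF2AK3 −0.190 and 0.359, and EIF2AK4 −0.629 and −0.225. Of the eIF4E-binding repressors, EIF4EBP1 had r = 0.307 with the list and −0.135 once the component was removed (adjusted p = 3.30e-04 and 0.142), and EIF4EBP2 had 0.061, which did not pass.

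WARS1 and EIF2AK2 were also set against interferon-response genes, since both genes are induced by interferon in human cells. Of 32 listed genes 8 were measured, MX1, OAS1Y and IFI6 among them. WARS1 correlated with their mean at r = 0.522 (rho = 0.403, permutation p = 1e-05, adjusted p = 1.93e-05). Without the 2 cows farthest from the median r was 0.450, and with the component removed it was 0.524. EIF2AK2 had r = 0.268 (adjusted p = 0.00145), with rho = 0.172 (adjusted p = 0.0504). Its r was 0.167 without the 2 farthest cows and 0.098 without the 4 cows highest in the list, so that the relation before removal of the component rested on few cows. With the component removed, EIF2AK2 had r = 0.736 and rho = 0.567 (adjusted p = 2.45e-05 and 3.37e-05). In that setting r was 0.667 without the 2 farthest cows and 0.593 without the 4 highest. EIF2AK1, EIF2AK3 and EIF2AK4 gave values between −0.055 and 0.016 and did not pass. How many of all transcripts reached such correlations with the interferon list was not counted. Cows were permuted as if unrelated, and family effects remain in the residuals, so these p-values may be too small.

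Between one another, translation genes formed 2 blocks on either side of the array-wide component. Of the 78 genes, 25 had a correlation above 0.5 with it and 29 one below −0.5, or 69.2% together, where 52.8% of all transcripts had either. The 3003 pairs of genes had a mean r of 0.037 and a median size of r of 0.408, while all pairs of the array had a median size of 0.240. After that component was removed, the median size was 0.148 for pairs of translation genes and 0.111 for all pairs. These correlations are descriptions over the same 145 cows, arrays and normalization.

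Subunits of one complex fell on both sides. In eIF3, EIF3E, EIF3A, EIF3J and EIF3H correlated with the component at 0.94, 0.87, 0.76 and 0.70, and EIF3G, EIF3D, EIF3K, EIF3I, EIF3F and EIF3B at −0.86, −0.80, −0.79, −0.76, −0.69 and −0.56. EIF3A and EIF3E had r = 0.862 with each other, whereas EIF3E and EIF3G had −0.775. These pairs had 0.286 and 0.161 once the component was removed. Of the 66 pairs of eIF3 subunits, 30 were negative, or 45.5%, where 46.3% of all pairs of the 78 genes and 49.9% of all pairs of the array were. After removal of the component, 11 of the 66 were. In eIF2, EIF2S2 and EIF2S3 had r = 0.832, but EIF2S1 had 0.186 and 0.123 with them. In eIF2B, EIF2B2, EIF2B4 and EIF2B5 had r of 0.559 to 0.642 among themselves and −0.306 to −0.175 with EIF2B3. In the multisynthetase complex, which gathers several cytosolic synthetases, EPRS1, IARS1 and RARS1 had r of 0.860 to 0.915 among themselves, while QARS1 had −0.722, −0.715 and −0.792 with them. MARS1, of the same complex, had 0.649 with QARS1 and KARS1 had values between −0.036 and 0.070 with these 5 synthetases.

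The most alike pairs of all were EIF3E with IARS2 (r = 0.915), EPRS1 with IARS1 (0.915), EIF4E with EIF2S2 (0.907), EIF3E with EIF2S3 (0.904), IARS1 with IARS2 (0.903) and RARS1 with EIF3E (0.896). The most opposed were QARS1 with EIF3E (−0.801), EIF3E with FARS2 (−0.792) and QARS1 with RARS1 (−0.792). With the component removed, EIF4E with EIF2S2 had 0.691 and EPRS1 with IARS1 0.635, whereas QARS1 with EIF3E had 0.195, QARS1 with RARS1 −0.015 and EIF3E with IARS2 0.440. GARS1 with MARS1, at 0.110 before, had 0.652, and 0.491 without the 4 cows of the ATF4 tail. The 14 cytosolic synthetases had a mean r of 0.109 over their 91 pairs and of 0.256 with the component removed, where all pairs of the array had 0.0093. The 12 mitochondrial synthetases had means of 0.011 and 0.131.

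Pairs of a cytosolic and a mitochondrial synthetase for the same amino acid did not share one pattern. The r was 0.903 for isoleucine, 0.767 for arginine, 0.535 for histidine, 0.518 for methionine, 0.269 for serine, −0.365 for tryptophan and −0.367 for tyrosine. With the component removed, the pairs of histidine and isoleucine kept 0.530 (0.444 without the cow of summer2011) and 0.518, that of arginine had 0.332, and the other 4 lay between −0.115 and 0.162.

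**Figure D5:**
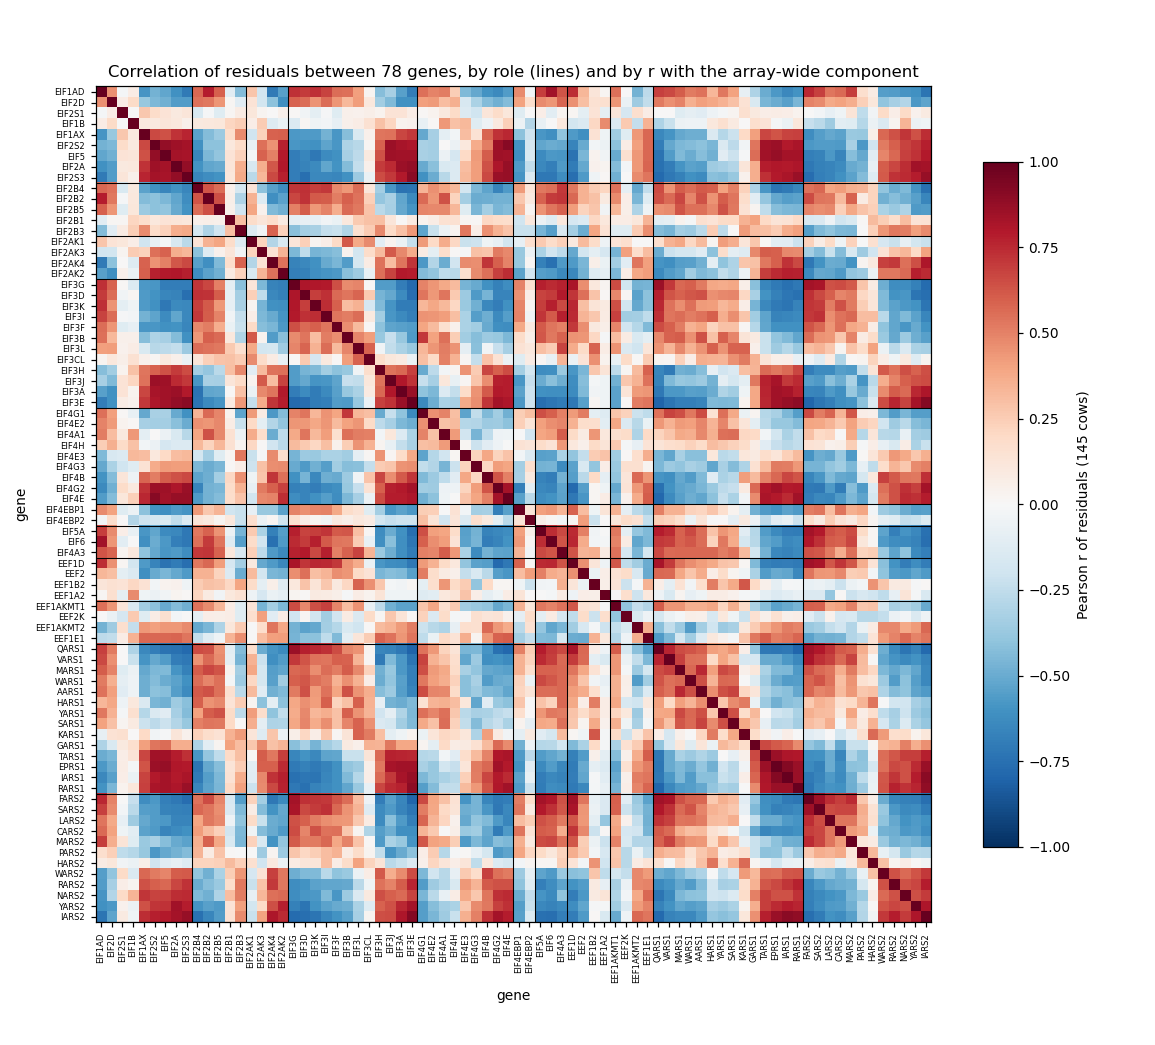
Pearson's r between the residuals of every pair of the 78 genes over 145 cows, from −1 (blue) to 1 (red). Black lines part the 11 roles, and genes within a role are ordered by their correlation with the array-wide component. Red and blue blocks within the roles show the 2 sets of genes, such as EIF3E with EIF3A (0.862) and EIF3E with EIF3G (−0.775).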

How the data were processed

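Adrenal cortex RNA of 145 cows was hybridised to a custom Affymetrix bovine gene array. The authors ran RMA in Affymetrix Expression Console (versions not given in the sources used here), that is, background correction, quantile normalization of the arrays and 1 summary value per transcript and array, and dropped transcripts not detected. What they deposited is a table of log2 signals for 10986 transcripts; 2 of its columns hold no values and were not used. Quantile normalization gives all arrays one distribution, so slopes are relative to the rest of the array. Of the transcripts, 8822 had 1 platform symbol, 418 several and 1746 none, and all 78 genes were found in the RefSeq table by gene identifier. The authors' sire and dam terms were not fitted, since the pedigree was not analysed here.

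The tests were run in limma 3.58.1 (R 4.3.3). A model of class and age, per 100 days, supplied the F-test, the age slope and the residuals (119 residual degrees of freedom). The slope on year had season and age as terms, and the season contrasts year and age, with class as a random block (statmod 1.5.0, block correlations −0.015 and −0.042). Year varies only between classes. As the block correlations lie below 0, the block did not widen the standard errors of the slopes, and cows counted nearly as independent. Without the block EIF2B5 lost its call for year. P-values were adjusted by Benjamini-Hochberg over all transcripts. The fits were tried on simulated data with independent noise for each transcript and cow. Those data held no array-wide component and no relatedness, so the trial cannot show how the fits behave under either. The array-wide component is the first principal component of the residuals of transcripts outside the genes and lists; as a covariate it was taken from the values. Alternatives were median centring, repeated quantile normalization, a minimum mean of 6, the component, another variance prior, no block, other year and season terms, and the 5 arrays least like the others, single years or single cows left out. The chromaffin mean as a covariate, the omission of 4 cows from correlations and that of 1 cow of summer2011 were added after seeing the data.

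The genes, lists and tests were chosen with earlier results of these data known. Named are every gene past a threshold, the 12 largest F, the 10 highest and 5 lowest percentiles of residual SD, the 6 most and 3 least correlated pairs, the family of 27 correlations and up to 4 genes of a list; further subunits of the same complexes were named after their values were seen. The number of arrays, 1 per cow, limits the precision.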

Additional observations from a re-analysis of the deposited data

Results flagged for a closer look

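In classes of 4 to 10 cows, the highest or lowest cow stood far from the rest in 14 of 228 tests of the 12 genes with the largest F in 19 classes, or 6.14%. Chance alone flags about 1 in 20 such groups. EIF1B had 1 cow at 9.47 in autumn2009, with the nearest cow at 8.84. EEF2K had 1 at 9.31 there, with the nearest at 8.75, and this was the same cow. In summer2011 another cow had 11.09 for EIF4A1 and 9.89 for EIF3CL, where the nearest cows had 11.69 and 10.45. This cow was the lowest of all 145 in 18 of the 78 genes. In summer2005, 1 cow had 9.35 for EIF3F and 6.10 for EIF2S1, where the nearest had 9.71 and 6.44. EIF4A1 was high in 1 cow of winter2007/2008 (12.03). EEF1AKMT1 was low in 1 cow of autumn2008 (7.72) and 1 of winter2010/2011 (7.68), and EIF3CL in 1 of winter2010/2011 (10.52). EIF2B1 was low in 1 cow of autumn2009 (8.67) and 1 of autumn2010 (8.71) and high in 1 of spring2009 (8.95) and 1 of winter2007/2008 (9.06).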

How the results depend on the processing

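Calls for year held best for the 14 genes that passed in every alternative; of the 35, 15 passed in all settings, 19 without any single year and 30 without any single cow. Without 1 cow or another of the small classes, EIF3K, EIF3D, EIF2AK2, EIF2AK1 and EIF2B5 lost their calls, with adjusted p of up to 0.0672, 0.0658, 0.0820, 0.0915 and 0.0738, and EIF2B1 lost its call over classes (up to 0.0697). Without 2011, EIF4EBP1, EIF3G, CARS2, EIF4A3, EIF5 and EIF5A were among those lost. Repeated quantile normalization left 33 calls with 16 genes lower. Without 2010, 27 were called, 15 of them higher (36.6% and 20.8% of all transcripts), and without 2011, 25 (33.4%); in cows of the last 5 years 6 were lower (11.8%). With the array-wide component as a covariate, 20 genes were called over classes, against 7. Without the cow of summer2011 lowest in 18 genes, 8 were called over classes and 37 for year (28 higher, 9 lower), with EIF2D, KARS1 and EIF3L gained and EIF2AK1 lost for year and EIF2B4 gained over classes. Leaving out single cows gave 6 to 8 calls over classes, 32 to 38 for year, 23 to 27 higher, 9 to 12 lower, and 0 for age and season. Signs of called values turned for the slopes of EIF4H (−0.0059, quantile normalization) and EIF2AK1 (0.022, last 5 years) and, with the component removed, for the correlations with the ATF4 list of EPRS1 (0.378), IARS1 (0.242), QARS1 (−0.087), RARS1 (0.161), TARS1 (0.638), EIF2AK2 (0.043) and EIF4EBP1 (−0.135); the cause was not tested. No paired analysis was possible because the labels give no replicate numbers shared by classes. Cows are related and pedigree terms were not fitted, classes hold as few as 2 cows, and slopes are relative to the array.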

Other observations

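EIF1B, the gene with the largest F over classes, also correlated with the chromaffin mean (r = 0.54) and with the mean of the cortical steroid genes (r = −0.44), both seen only after the values were examined. EIF4E3, a relative of the cap-binding protein eIF4E, had r = −0.66 with the cortical mean. The highest r with the cortical mean were those of MARS2 (0.66), EIF4G1 (0.59) and FARS2 (0.58). The r of these 3 genes with the array-wide component was −0.64, −0.60 and −0.88, and that of EIF4E3 was 0.44. These are descriptions over the 145 cows and were not tested.

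With the array-wide component removed, KARS1, EIF3L and EEF1B2 were among the most alike genes. KARS1, the lysyl-tRNA synthetase, had r = 0.65 with EIF3L, a subunit of eIF3, and 0.62 with EEF1B2, a subunit of the exchange factor of eEF1A. EIF3L had 0.63 with EEF1B2 and 0.64 with EIF3CL. All 4 genes were lowest in the same cow of summer2011, and without it the 4 values were 0.53, 0.49, 0.52 and 0.54 in the order given. EIF4E3 and EPRS1 were the most opposed pair in that setting, with r = −0.58.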
